A study of Drosophila melanogaster with 8 samples.

Results

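The small heat shock protein genes of *Drosophila melanogaster* examined here are *Hsp22*, *Hsp23*, *Hsp26*, *Hsp27*, *Hsp67Ba*, *Hsp67Bb*, *Hsp67Bc* and *l(2)efl*. They were chosen by name, and all 8 were found among the 16845 gene identifiers of the count table, 7 by their current symbol and *Hsp67Bb* by an older synonym of the gene now called *CG4456*. Small heat shock proteins are ATP-independent chaperones that share an alpha-crystallin domain, assemble into oligomers and hold unfolding proteins until the ATP-driven Hsp70 machinery can refold them. In the fly most of their genes lie together at one site, 67B on the left arm of chromosome 3, and they are known both for their induction by heat, through the heat shock factor Hsf, and for their expression in normal development, where the steroid hormone ecdysone induces several of them around pupariation. *Hsp67Bb* is a member by its place in the cluster and its name, since it is known to encode a rhodanese-domain protein without an alpha-crystallin domain.

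RNA-seq was performed on male terminalia, the developing genital and anal structures, at 28 hr after puparium formation (APF) and at 24 hr APF. Each group had 4 libraries, each made from the terminalia of a single pupa of the genotype yw;+;+, and both groups were collected as white prepupae at room temperature and kept at 25 °C until dissection in cold buffer. The libraries held between 28463333 and 33831406 counted reads at 28 hr APF and between 24534188 and 35795240 at 24 hr APF. No 2 libraries of a time point were duplicates: their counts lay further apart than sampling noise, by a chi-square of 7.77 or more for each degree of freedom. Since each library is 1 pupa, the p-values below measure the spread between single pupae, and whether pupae of a time point were collected together is not stated. All 12 listed markers of terminalia, among them *Abd-B*, *cad*, *dsx* and *Poxn*, were tested and present in all libraries, with a summed level of 1081 to 1130.1 rpkm at 28 hr APF and 884 to 1003 rpkm at 24 hr APF. RNA came from whole terminalia, so more cells that express a gene and more RNA per cell cannot be told apart.

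Replicate 1 at 24 hr APF stood apart from the other libraries in its inducible Hsp70 genes and is therefore described before the results. The level of *Hsp70Aa*, a copy of the stress-inducible Hsp70 chaperone, was 27.9, 12.6, 9.31 and 7.26 rpkm in replicates 1 to 4 at 28 hr APF and 240.0, 9.14, 6.41 and 17.9 rpkm in replicates 1 to 4 at 24 hr APF. Only that pupa was far above all others, by 8.61-fold over the next highest library. In this library 9 genes had at least 2 times the CPM (the count scaled to the total of the library) of every other library among tested genes, and these included all 6 *Hsp70* copies and *Hsp68*. The other 2 were *CG34194* and *Cc2d2a*, and these genes were singled out after their values were seen. In the other libraries between 1 and 26 genes met this rule. The *Hsp70* copies are nearly identical in sequence and may not be separate measurements. Tests, medians and spreads of the small heat shock protein genes that moved by over 1.5 times without replicate 1 at 24 hr APF are given below with and without it. Because this library was singled out by its high values, leaving it out raises the change of genes that are highest in it. Calls that appear only without it are therefore a description and not a test.

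The 7 members of the 67B cluster lie on chromosome arm 3L of the BDGP6 assembly, from 9371511 to 9385694, a span of 14.2 kb, and *l(2)efl* lies apart from them on arm 2R from 23684651 to 23685543. The table of counts gives no coordinates, and these positions come from a later annotation, matched by FlyBase identifier. The exons of *Hsp22* (FBgn0001223) lie wholly inside those of *Hsp67Bb* (FBgn0001228) on the same strand, and 90.1% of the exon bases of *Hsp67Bb* are shared in turn. The annotation gives *Hsp22* a transcript of 968 bases of its own and a transcript of 1900 bases that runs through both genes. The counts of the pair were nearly the same, with *Hsp67Bb* higher than *Hsp22* by 3 to 10 reads in a library, so the 2 genes are 1 measurement here and cannot be told apart. For *Hsp67Ba* (FBgn0001227), 75.9% of the exon bases are shared with *asRNA:CR43481*, a noncoding RNA on the opposite strand. That gene had between 9487 and 16544 reads in a library, against 10702 to 18856 for *Hsp67Ba*, and reads on the shared bases cannot be assigned to either gene where strand is not used. *Hsp23* (FBgn0001224), *Hsp26* (FBgn0001225) and *Hsp67Bc* (FBgn0001229) share no exon base with another gene, and *Hsp27* (FBgn0001226) and *l(2)efl* (FBgn0011296) share 3.0% and 10.1%.

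**Figure D1:**
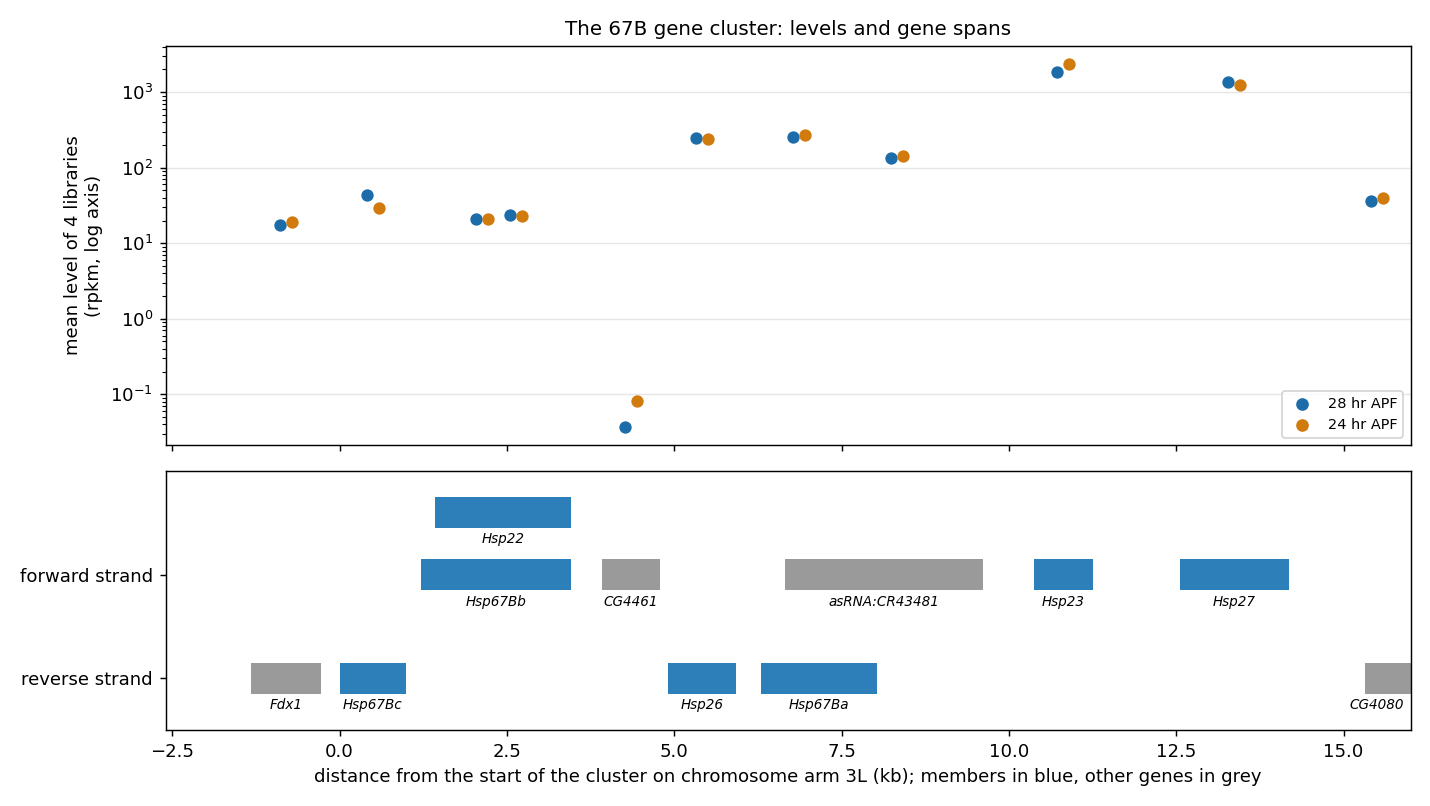
The upper panel plots the mean level of 4 libraries (rpkm, log axis) of each gene of the 67B cluster at 28 hr APF (blue) and 24 hr APF (orange), and the lower panel the gene spans on both strands, as distance from the start of the cluster in kb. *CG4461*, inside the cluster, lies below 0.1 rpkm while its neighbor *Hsp26* lies at 251 and 239.8 rpkm; *CG4080* runs beyond the right edge, and genes farther out are not drawn.

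The members spanned a wide range of levels, and 2 of them, *Hsp23* and *Hsp27*, were among the most abundant transcripts of the terminalia. Their levels are given in rpkm, the CPM divided by the length of the exons in kilobases. *Hsp23*, a cytosolic small heat shock protein, had 1844 ± 219 rpkm at 28 hr APF and 2358 ± 489 rpkm at 24 hr APF (SD, n = 4 each), rank 17 and rank 10 among all genes with a length. *Hsp27*, which is found in the nucleus, had 1354 ± 46.7 rpkm at 28 hr APF and 1239 ± 48.2 rpkm at 24 hr APF (SD, n = 4 each), rank 23 and rank 29. These 2 genes held between 83.8% and 85.5% of the summed rpkm of the members at 28 hr APF and between 84.9% and 88.0% at 24 hr APF, with *Hsp67Bb* left out of the sum. The sum of these 7 members was 4628 ± 283 CPM at 28 hr APF and 4892 ± 579 CPM at 24 hr APF (SD, n = 4 each).

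Below these came *Hsp67Ba* at 257 ± 9.79 rpkm and the cytosolic *Hsp26* at 251 ± 13.6 rpkm at 28 hr APF, against 270.3 ± 24.6 and 239.8 ± 71.5 rpkm at 24 hr APF (SD, n = 4 each). The libraries of these 2 genes overlapped at both time points, so their order cannot be given. *Hsp67Bc*, known to bind the co-chaperone Starvin and to promote autophagy, had 43.5 ± 2.22 rpkm at 28 hr APF and 29.3 ± 4.61 rpkm at 24 hr APF (SD, n = 4 each). *Hsp22*, a chaperone of the mitochondrial matrix, had 23.5 ± 1.10 rpkm at 28 hr APF and 23.1 ± 13.8 rpkm at 24 hr APF (SD, n = 4 each), below *Hsp67Bc* in every library at 28 hr APF but overlapping it at 24 hr APF. This order rests on the length of 1900 exon bases. If the reads came from the 968-base transcript, an alternative chosen after seeing the data, *Hsp22* would have 48.9, 45.5, 43.7 and 46.1 rpkm in replicates 1 to 4 at 28 hr APF, slightly above *Hsp67Bc* in each library. On its shortest transcript of 1220 bases *Hsp27* would have 1811 ± 62.5 rpkm at 28 hr APF, and its libraries would overlap those of *Hsp23*. *l(2)efl*, a relative of the mammalian alpha-B crystallin, was lowest at 3.34 ± 0.797 rpkm at 28 hr APF and 3.81 ± 0.669 rpkm at 24 hr APF (SD, n = 4 each), from 46 to 100 reads in a library. The highest and lowest members thus differed 551-fold at 28 hr APF and 618-fold at 24 hr APF.

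**Figure D2:**
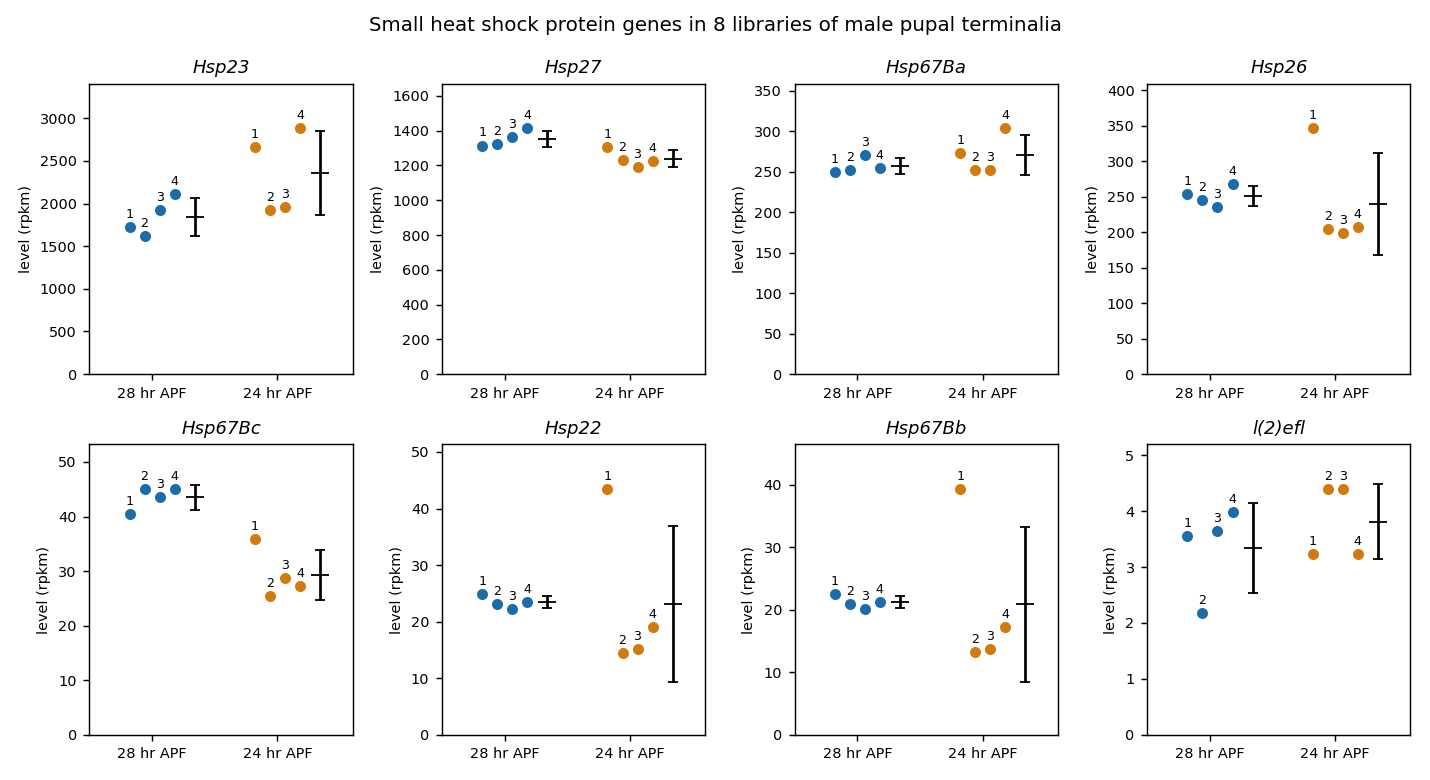
Each panel plots the level of 1 gene (rpkm, axis from 0) in the 4 libraries at 28 hr APF (blue) and the 4 at 24 hr APF (orange), labeled by replicate number, with the mean and SD beside them. *Hsp67Bc* and *Hsp27* are higher in all libraries at 28 hr APF, and replicate 1 at 24 hr APF is the highest library for *Hsp22*, *Hsp67Bb* and *Hsp26*.

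Between the time points, 2 of the 8 members changed, *Hsp67Bc* and *Hsp27*, and both rose at 28 hr APF. The test was edgeR's quasi-likelihood test on counts with Benjamini-Hochberg adjustment over all 11232 tested genes and a threshold of 0.05, by which 32.9% of all tested genes differed, 15.6% higher and 17.3% lower at 28 hr APF. The share of members called, 25.0%, was not above that of all tested genes. The median log2 fold change of the members (28 hr over 24 hr APF) was 0.05, against 0.00 for all tested genes, and without replicate 1 at 24 hr APF it was 0.26, again against 0.00. All 8 members passed the filter on low counts.

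*Hsp67Bc* had the larger change. Its level was 40.4, 45.1, 43.6 and 45.0 rpkm in replicates 1 to 4 at 28 hr APF and 35.9, 25.4, 28.7 and 27.2 rpkm in replicates 1 to 4 at 24 hr APF. The groups did not overlap, which was so for 34.4% of all tested genes, and replicate 1 at 24 hr APF came closest to the later stage. On the log2 scale the difference was 0.60 (standard error 0.10, adjusted p = 0.00103 from edgeR), and it was 0.72 (adjusted p = 0.000114) without that library. *Hsp67Bc* passed the threshold whichever of the 8 libraries was left out.

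Marker genes of neurons and of the terminalia, and some of muscle, also rose at 28 hr APF. Of 9 neuron genes tested 8 rose, and of 12 terminalia genes 7 rose and 0 were called lower, with a median log2 fold change of 0.20. Muscle genes moved both ways, with 9 of 15 higher and 4 lower. Of all tested genes 15.6% were called higher and 17.3% lower. Of the muscle genes named here after their values were seen, the myosin light chain *Mlc2* had 42.3 ± 4.00 rpkm at 28 hr APF and 20.4 ± 1.96 rpkm at 24 hr APF, while the actin *Act57B* fell to 236 ± 27.9 rpkm at 28 hr APF, against 315 ± 36.6 rpkm at 24 hr APF (SD, n = 4 each). *Mef2*, *Mhc* and *twi* also fell. The summed level of the muscle list ranged from 749 to 856 rpkm at 28 hr APF and from 682 to 915 rpkm at 24 hr APF. These ranges overlapped, and the actins *Act57B* and *Act87E* held most of the sum. *Act87E*, also named after its values were seen, had 454 ± 21.7 rpkm at 28 hr APF and 393 ± 52.2 rpkm at 24 hr APF (SD, n = 4 each). The summed level of the neuron list ranged from 22.3 to 26.3 rpkm at 28 hr APF and from 15.2 to 18.3 rpkm at 24 hr APF. None of the markers in either list was without reads. The part of these cells in the levels of *Hsp67Bc* and *Hsp27* was not tested. *stv*, which encodes Starvin and was named after its values were seen, had 7.30 ± 0.688 rpkm at 28 hr APF and 8.88 ± 2.83 rpkm at 24 hr APF (SD, n = 4 each; log2 fold change -0.25, adjusted p = 0.319 from edgeR). Replicate 1 at 24 hr APF had 13.1 rpkm of *stv*, against 6.92 to 7.99 rpkm in the other libraries of that stage, and without it the log2 fold change was 0.00. The 5 tested genes with the profile over the 8 libraries closest to that of *Hsp67Bc* were *gogo*, *jv*, *Osi17*, *CG12224* and *CG14441*, with root-mean-square distances of 0.084 to 0.112 on the log2 CPM scale, and *gogo* had 1.59 rpkm at 28 hr APF and 1.09 rpkm at 24 hr APF on average.

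*Hsp27* was the steadiest member and rose slightly. Its level was 1315, 1321, 1364 and 1416 rpkm in replicates 1 to 4 at 28 hr APF and 1306, 1229, 1192 and 1228 rpkm in replicates 1 to 4 at 24 hr APF. The groups lay close together and did not overlap. Expressed as a log2 fold change the difference was 0.16 (standard error 0.05, adjusted p = 0.0247 from edgeR). The direction held whichever of the 8 libraries was left out, with log2 fold changes from 0.13 to 0.19, but *Hsp27* passed the threshold in only 4 of these fits. It missed the threshold without replicate 3 (adjusted p = 0.0572) or replicate 4 (0.0537) at 28 hr APF and without replicate 2 (0.0589) or replicate 3 (0.0602) at 24 hr APF.

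*Hsp22* and *Hsp26* differed more between pupae at 24 hr APF than between the time points, and 1 library decided their comparison. The level of *Hsp22* was 24.9, 23.2, 22.3 and 23.5 rpkm in replicates 1 to 4 at 28 hr APF and 43.5, 14.5, 15.2 and 19.1 rpkm in replicates 1 to 4 at 24 hr APF. Replicate 1 at 24 hr APF lay above every library at 28 hr APF and the other replicates at 24 hr APF lay below all of them. With all libraries the log2 fold change was 0.05 (standard error 0.30, adjusted p = 0.923 from edgeR). Without replicate 1 at 24 hr APF, singled out after its values were seen, it was 0.56 (standard error 0.10, adjusted p = 0.00297 from edgeR). *Hsp67Bb*, which holds the same reads, had log2 fold changes of 0.05 and 0.55 in these fits.

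The level of *Hsp26* was 254, 245, 236 and 268 rpkm in replicates 1 to 4 at 28 hr APF and 347, 205, 199 and 208 rpkm in replicates 1 to 4 at 24 hr APF. The arrangement was that of *Hsp22*, with replicate 1 at 24 hr APF above all libraries of the later stage and the others below. The log2 fold change of *Hsp26* was 0.09 (standard error 0.16, adjusted p = 0.696 from edgeR) with all libraries and 0.33 (standard error 0.05, adjusted p = 0.0012) without replicate 1 at 24 hr APF. Without that library 5 of the 8 members were called, all higher at 28 hr APF and 2 of them the *Hsp22* and *Hsp67Bb* pair, against 27.3% of all tested genes called with 13.1% higher and 14.3% lower. The same 5 members did not overlap between the groups, which was so for 37.7% of all tested genes. The library left out had been singled out after its values were seen, and it was the highest for *Hsp22*, *Hsp67Bb* and *Hsp26*. Leaving it out raises the change of these genes by selection, so neither count can be weighed against the share of all tested genes.

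*Hsp23* and *Hsp67Ba* had their highest levels in replicates 4 and 1 at 24 hr APF. *Hsp23* had 1721, 1619, 1925 and 2112 rpkm in replicates 1 to 4 at 28 hr APF and 2659.9, 1923, 1961 and 2886 rpkm in replicates 1 to 4 at 24 hr APF. Replicates 2 and 3 at 24 hr APF lay within the range of the later stage. The difference on the log2 scale was -0.33 (standard error 0.14, adjusted p = 0.107 from edgeR), and it lay between -0.42 and -0.21 when any 1 library was left out. It passed the threshold in 1 of these 8 fits, without replicate 3 at 24 hr APF (adjusted p = 0.0486).

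*Hsp67Ba*, with the antisense reads it may hold, had 249, 252, 271 and 255 rpkm in replicates 1 to 4 at 28 hr APF and 273, 252, 252 and 304 rpkm in replicates 1 to 4 at 24 hr APF. The groups overlapped, and the log2 fold change was -0.04 (standard error 0.07, adjusted p = 0.679 from edgeR). *l(2)efl* had 3.56, 2.18, 3.64 and 3.99 rpkm in replicates 1 to 4 at 28 hr APF and 3.23, 4.40, 4.39 and 3.24 rpkm in replicates 1 to 4 at 24 hr APF. Its groups also overlapped, and the log2 fold change was -0.15 (standard error 0.21, adjusted p = 0.642 from edgeR), so that the difference did not pass the test.

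**Figure D3:**
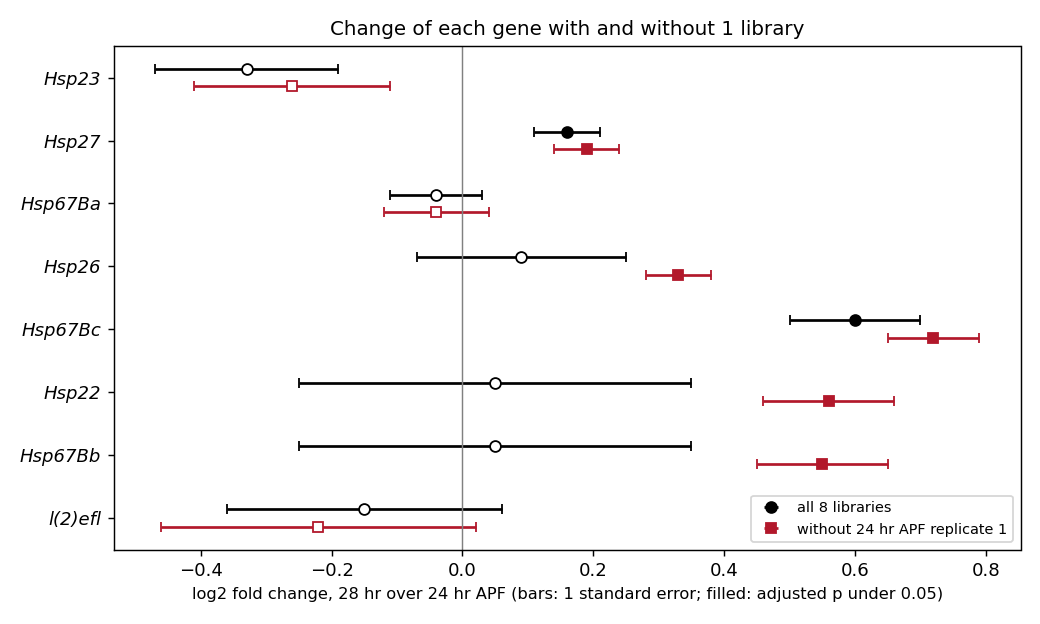
The log2 fold change of each gene, 28 hr over 24 hr APF, with all 8 libraries (black circles) and without replicate 1 at 24 hr APF (red squares), where bars are 1 standard error and filled symbols passed an adjusted p of 0.05. *Hsp22* and *Hsp67Bb* move from 0.05 to 0.56 and 0.55 and *Hsp26* from 0.09 to 0.33, while *Hsp23*, *Hsp67Ba* and *l(2)efl* pass in neither fit.

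The spread between pupae at 24 hr APF rested on replicate 1 for *Hsp22* and *Hsp26*. The coefficient of variation over 4 libraries was 4.70% at 28 hr APF and 59.8% at 24 hr APF for *Hsp22*, and 5.42% and 29.8% for *Hsp26*. At 24 hr APF the value of *Hsp22* was larger than that of 97.5% of all tested genes, and that of *Hsp26* was larger than that of 88.5%. Without replicate 1 at 24 hr APF, an alternative chosen after seeing the data, the coefficient at 24 hr APF was 15.2% for *Hsp22*, and for *Hsp26* it was 2.39%, below the value at 28 hr APF. The mean level at 24 hr APF without that library was 16.3 ± 2.47 rpkm for *Hsp22* and 204 ± 4.88 rpkm for *Hsp26* (SD, n = 3 each). For *Hsp67Bc* the coefficient was 5.09% at 28 hr APF and 15.7% at 24 hr APF, and the last value was 6.02% without it. *Hsp27* had 3.45% at 28 hr APF and 3.89% at 24 hr APF (1.75% without replicate 1), below the medians of all tested genes, which were 8.01% and 7.08%. Against the median of the other libraries at 24 hr APF, replicate 1 was higher by 2.86-fold for *Hsp22*, 1.69-fold for *Hsp26*, 1.36-fold for *Hsp23*, 1.32-fold for *Hsp67Bc*, 1.08-fold for *Hsp67Ba* and 1.06-fold for *Hsp27*. For *l(2)efl* this ratio was 0.736.

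The inducible Hsp70 genes were raised further in replicate 1 at 24 hr APF than any member. The Hsp70 chaperones are the ATP-driven partners of the small heat shock proteins, and the inducible copies are nearly silent in unstressed flies. The 6 copies and *Hsp68* were 7.27-fold to 28.1-fold higher in that library than the median of the other libraries at 24 hr APF. The copies *Hsp70Aa* to *Hsp70Bc* are nearly identical in sequence, so reads may be split among them by the alignment or counted for several of them. Counts of these genes may therefore repeat a measurement. With all libraries, edgeR called 0 of the 7 genes, 5 had an unadjusted p under 0.05, and the log2 fold changes had a median of -2.25. DESeq2 gave no adjusted p for 6 of them and called 0. Without replicate 1 at 24 hr APF, the median was 0.27, 1 gene had an unadjusted p under 0.05 and 0 were called. The level of *Hsp68* was 7.43, 5.84, 6.05 and 5.25 rpkm in replicates 1 to 4 at 28 hr APF and 53.8, 7.40, 6.78 and 11.9 rpkm in replicates 1 to 4 at 24 hr APF. *Hsf*, the heat shock factor, was named after its values were seen and had 45.3 ± 4.01 rpkm at 28 hr APF and 46.3 ± 1.49 rpkm at 24 hr APF (SD, n = 4 each).

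**Figure D4:**
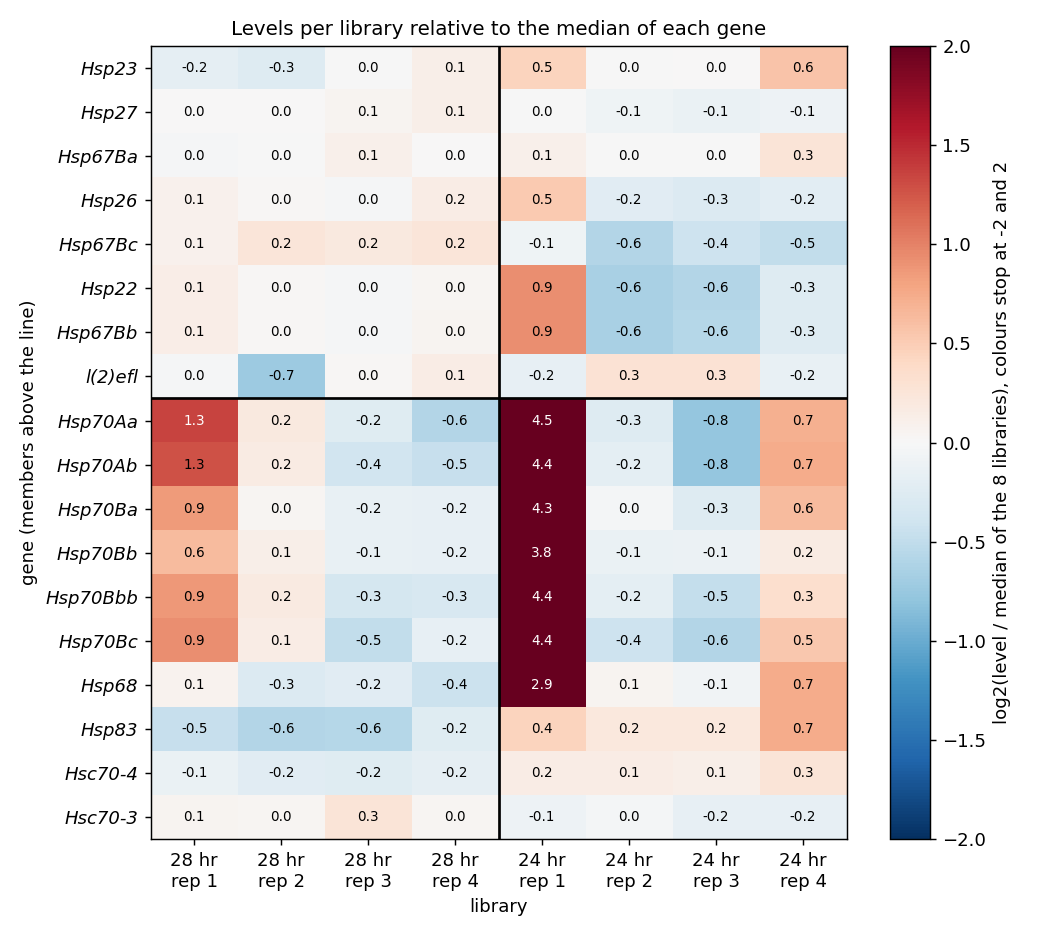
Each cell gives log2 of the level of a gene in a library over its median in the 8 libraries, with 28 hr APF libraries left of 24 hr APF libraries and the small heat shock protein genes above the line. The Hsp70 genes and *Hsp68* are highest in replicate 1 at 24 hr APF, as are *Hsp22*, *Hsp67Bb* and *Hsp26*, whereas *Hsp23*, *Hsp67Ba* and *Hsp83* are highest in replicate 4 at 24 hr APF.

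Of the other alpha-crystallin genes, only *CG14207* passed the filter on low counts. It had 143 ± 10.5 rpkm at 28 hr APF and 153 ± 6.05 rpkm at 24 hr APF (SD, n = 4 each), and the difference of -0.07 on the log2 scale did not pass the test (adjusted p = 0.262 from edgeR). Replicate 1 at 24 hr APF, at 150.0 rpkm, lay within the range of the other libraries. *CG4461*, which lies between *Hsp22* and *Hsp26* in the cluster, had 0 to 7 reads in a library, and *CG7409* had 0 to 4. *CG13133* and *CG43851* had 0 reads in all 8 libraries, which allows up to 0.0838 CPM in the deepest library and 0.122 CPM in the shallowest by counting error alone.

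Genes next to the cluster had levels of their own. Of 9 other genes inside it or within 10 kb, 8 were tested and 1 was called. *Klp67A*, a mitotic kinesin, fell to 19.3 ± 2.19 rpkm at 28 hr APF, against 38.0 ± 1.55 rpkm at 24 hr APF (SD, n = 4 each; log2 fold change -0.95). *Fdx1*, the gene next to *Hsp67Bc*, had 17.7 ± 1.54 rpkm at 28 hr APF and 19.0 ± 1.53 rpkm at 24 hr APF, and *CG4080*, beyond *Hsp27*, had 36.5 ± 2.31 and 39.2 ± 1.41 rpkm (SD, n = 4 each). Neither passed the threshold. The noncoding *asRNA:CR43481* had 135 ± 5.88 rpkm at 28 hr APF and 142 ± 12.9 rpkm at 24 hr APF (SD, n = 4 each), with the reads it shares with *Hsp67Ba*. The levels of *CG4452*, *Pdxk*, *mRRF1* and *CG34456* lay between 1.09 rpkm and 37.4 rpkm at 28 hr APF and between 1.67 and 36.8 rpkm at 24 hr APF.

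In the other chaperone classes more genes fell than rose at 28 hr APF. Over 7 lists of other chaperones and co-chaperones, 30 of 55 tested genes were called, 6 higher and 24 lower at 28 hr APF, and the median log2 fold change was -0.22. That is 54.5%, against 32.9% of all tested genes, of which 15.6% were higher and 17.3% lower. Without replicate 1 at 24 hr APF, 27 of 56 were called, 6 higher and 21 lower, and the median was -0.03. This share was 48.2%, against 27.3% of all tested genes. All 9 tested genes of the Hsp60 and CCT chaperonins, which fold proteins in a closed chamber, fell. The list held 12 measured genes, and *Hsp60B*, *Hsp60C* and *Hsp60D* did not pass the filter on low counts. Their mean levels were 0.312, 0.411 and 0.0475 rpkm at 28 hr APF, above 0.0350, 0.0133 and 0.00461 rpkm at 24 hr APF. Replicate 3 at 28 hr APF was the highest library for each, with 0.832, 1.09 and 0.102 rpkm. They had 0 to 55, 0 to 71 and 0 to 6 reads in a library, and their difference between the stages was not tested. *CCT5* had 225 ± 7.01 rpkm at 28 hr APF and 293 ± 7.08 rpkm at 24 hr APF (SD, n = 4 each; log2 fold change -0.35). *CCT1* and *CCT7* fell likewise, with log2 fold changes of -0.36 and -0.30. The difference between these classes and the small heat shock proteins was not tested.

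*Hsp83*, the cytosolic Hsp90, had the largest fall among the called genes of these lists. Its level was 790.3, 726, 739 and 924 rpkm in replicates 1 to 4 at 28 hr APF and 1487, 1263, 1263 and 1820.2 rpkm in replicates 1 to 4 at 24 hr APF. The groups did not overlap. The log2 fold change of *Hsp83* was -0.85 (standard error 0.12, adjusted p = 0.000484 from edgeR) and -0.84 without replicate 1 at 24 hr APF. Its order of libraries at 24 hr APF, with replicate 4 highest and replicate 1 next, was that of *Hsp23*. The mitochondrial Hsp90 *Trap1* fell by 0.16 on the log2 scale (adjusted p = 0.0179), although without replicate 1 at 24 hr APF its adjusted p was 0.0517. *Gp93*, the Hsp90 of the endoplasmic reticulum, had a log2 fold change of 0.00.

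Of the constitutive Hsp70 relatives, 3 rose and 3 fell among 7 tested, and without replicate 1 at 24 hr APF 2 rose and 3 fell. The gene lost was *Grp170*, named after its values were seen. Its adjusted p from edgeR was 0.0243 with all libraries and 0.0593 without that library. *Hsc70-4*, the main cytosolic form, had 1612 ± 53.8 rpkm at 28 hr APF and 2073 ± 91.3 rpkm at 24 hr APF (SD, n = 4 each; log2 fold change -0.33). *Hsc70-3*, the BiP of the endoplasmic reticulum, rose to 585 ± 43.1 rpkm at 28 hr APF, against 503 ± 19.7 rpkm at 24 hr APF (SD, n = 4 each). *Hsc70-1* also rose, at a low level, to 0.418 ± 0.102 rpkm at 28 hr APF, against 0.180 ± 0.0451 rpkm at 24 hr APF (SD, n = 4 each).

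Among 17 J-domain proteins, which deliver substrates to Hsp70, 2 rose and 4 fell. The share called, 35.3%, was near the 32.9% of all tested genes. *jdp* had 16.6 ± 1.75 rpkm at 28 hr APF and 4.77 ± 0.593 rpkm at 24 hr APF (SD, n = 4 each). It rose by 1.84 on the log2 scale (adjusted p = 2.04e-06 from edgeR). *Tpr2* rose with a log2 fold change of 0.25, and *Droj2* had one of -0.01 (adjusted p = 0.858). *CG7130* had 3.22, 3.01, 2.38 and 2.95 rpkm at 28 hr APF and 5.97, 3.90, 3.25 and 7.25 rpkm at 24 hr APF in replicates 1 to 4, highest in replicates 4 and 1 at 24 hr APF as *Hsp23* was. Its log2 fold change was -0.80 (adjusted p = 0.0367) and it was called in only 2 of the 8 fits without a library, with adjusted p-values up to 0.11.

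Of 11 co-chaperones and related genes, 1 rose and 6 fell. *p23*, a co-chaperone of Hsp90, fell by 0.45 on the log2 scale and *HIP-R*, a relative of the Hsp70-interacting protein, by 0.12, the last with an adjusted p of 0.0213 that was 0.0501 without replicate 1 at 24 hr APF. The noncoding stress RNA *Hsr-omega* had 97.0, 116, 112 and 166 rpkm at 28 hr APF and 100.1, 72.1, 84.6 and 99.0 rpkm at 24 hr APF in replicates 1 to 4. Its log2 fold change was 0.49 (adjusted p = 0.0358), the groups overlapped, and it was called in only 3 of the 8 fits that left out 1 library, with adjusted p-values up to 0.0963.

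**Figure D5:**
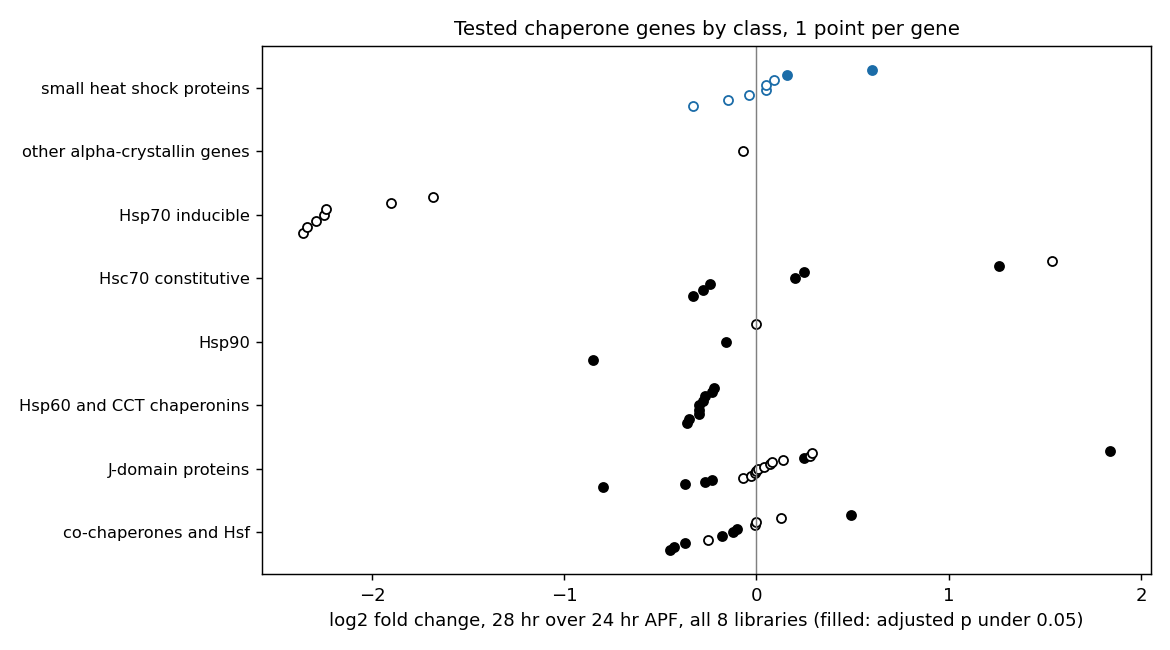
The log2 fold change, 28 hr over 24 hr APF, of each tested gene in 8 chaperone classes with all 8 libraries, where filled points passed an adjusted p of 0.05. The chaperonins lie between -0.36 and -0.22, the small heat shock proteins between -0.33 and 0.60, and the open points of the inducible Hsp70 class near -2 rest on replicate 1 at 24 hr APF.

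Genes of the ecdysone response, the hormone pathway known to induce several members around pupariation, changed in both directions. Of 22 tested, 8 rose and 6 fell, with a median log2 fold change of 0.08, and without replicate 1 at 24 hr APF 5 rose and 6 fell. *EcR*, the ecdysone receptor, had 53.1 ± 1.36 rpkm at 28 hr APF and 70.7 ± 1.76 rpkm at 24 hr APF (SD, n = 4 each), and *crol* had 76.4 ± 2.29 and 81.2 ± 1.98 rpkm (SD, n = 4 each; adjusted p = 0.279 from edgeR). The nuclear receptor *Hr4* rose with a log2 fold change of 2.17 and *ftz-f1* fell by 2.39 on the log2 scale, and these were named as the largest called changes of the list. The log2 fold changes of the members lay between -0.33 and 0.60 with all libraries. Genes of the ecdysone list moved both more and less than *Hsp67Bc*. Those that moved more included *Eip78C* (2.06), *Eip75B* (0.95) and *Eip74EF* (-0.77), named after their values were seen. Those that moved less included *EcR* (-0.38) and *crol* (-0.06).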

How the data were processed

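Poly-A libraries from single male terminalia were sequenced by the authors (51-base reads, 3 lanes), aligned with TopHat2 2.0.13 to dm3, and counted in unioned exons of FlyBase genes with bedtools. The deposited values are raw counts per gene, without normalization. How strand, overlapping genes and multiple alignments were treated is not given in the sources used here. Gene names, exon lengths and coordinates came from an Ensembl annotation on BDGP6, matched by identifier (16431 of 16845), without converting coordinates.

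Rpkm was calculated from each count, the unioned exon length and the library total. The groups were compared by the quasi-likelihood test of edgeR 4.0.16 under R 4.3.3, after TMM scaling and filterByExpr (count minimum 10), with p-values adjusted by Benjamini-Hochberg. A standard error is the absolute log2 fold change over the square root of F. The code was tested on simulated data. DESeq2 1.42.0, other normalizations, no filter, the replicate number as a block and leaving out each library were tried. Figures used Python 3.11.15.

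The members, lists and tests were chosen with earlier results of these data known. Genes named beside the members are, in each chaperone list and the ecdysone list, the 2 most abundant and the 2 with the largest called change, all genes of the alpha-crystallin and inducible Hsp70 lists, all genes within 10 kb of the cluster, and the 5 genes closest in profile to the called member with the largest change. Other genes are marked. Lists for terminalia, muscle, neuron, fat body, hemocyte and testis served as a check of tissue. With edgeR, hemocyte genes gave 0 calls of 8 (2 at an unadjusted p under 0.05), fat body genes 2 of 7 and testis genes 1 of 3. DESeq2 called 0 of 9, 2 of 10 and 4 of 7 genes of these lists. Without replicate 1 at 24 hr APF, edgeR called 1 of 7 fat body genes and 2 of 5 testis genes. The testis list held 7 measured genes, and those not tested did not pass the filter on low counts.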

Additional observations from a re-analysis of the deposited data

Results flagged for a closer look

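In 13 of 62 groups of 4 libraries, 1 library lay far outside the range of the rest, where chance flags about 1 in 20 groups, and genes of 1 library are not independent. Of these, 10 were replicate 1 at 24 hr APF. It was the highest library for *Hsp22* (43.5 rpkm), *Hsp67Bb* (39.4 rpkm, the same reads) and *Hsp26* (347 rpkm), and for *Hsp70Aa* (240.0 rpkm), *Hsp70Ab* (233 rpkm), *Hsp70Ba* (73.7 rpkm), *Hsp70Bb* (70.2 rpkm), *Hsp70Bbb* (66.1 rpkm), *Hsp70Bc* (61.9 rpkm) and *Hsp68* (53.8 rpkm). At 28 hr APF, replicate 1 was highest for *Hsp70Ba* (6.80 rpkm), replicate 3 was highest for *Hsc70-3* (649.8 rpkm) and replicate 4 was lowest for *Tpr2* (157 rpkm).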

How the results depend on the processing

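The count of members called was 2 with all libraries, 1 with the replicate number as a block, where *Hsp27* missed the threshold (log2 fold change 0.16, adjusted p = 0.0619), and between 1 and 5 in the 8 fits that left out 1 library, with 5 only without replicate 1 at 24 hr APF and 1 without replicate 2 at 24 hr APF or replicate 3 or 4 at 28 hr APF. The other alternatives, including leaving out *Hsp67Bb*, an alternative chosen after seeing the data, gave 2. The other chaperone genes called numbered 30 with all libraries and between 26 and 33 under all alternatives, and all genes called numbered from 3121 to 3998. Replicate numbers were not taken as pairs, since deviations of same-numbered libraries correlated across genes at -0.11, 0.13, -0.18 and 0.11; with the block 3175 genes were called.

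Of 104 alternative log2 fold changes of members, 87 kept their direction and side of the threshold. Leaving out each library in turn moved the log2 fold change between -0.12 and 0.56 for *Hsp22*, between -0.12 and 0.55 for *Hsp67Bb*, between -0.09 and 0.02 for *Hsp67Ba* and between -0.24 and 0.00 for *l(2)efl*, and these were the members that changed sign; the cause was not tested. Of 124 alternative levels, 116 moved by less than 1 SD. With the length of the longest transcript *Hsp67Bb* at 28 hr APF was 23.6 rpkm, and the other 7 that moved used the length of the shortest transcript, an alternative chosen after seeing the data. Of the members, *l(2)efl* had the fewest reads, 46 to 100 in a library, and the part of depth in its comparison was not tested.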
